A study of Mus musculus with 12 samples.

Results

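The 9 surface molecules through which macrophages help or restrain T cells that were followed here across genotype and stimulus are *Cd40*, *Cd80*, *Cd83*, *Cd86*, *Cd200*, *Cd274*, *Pdcd1lg2*, *Icosl* and *Tnfsf9*. They were chosen by name as costimulatory and checkpoint molecules, and 9 of 9 were found by accession, on 11 of the 41174 non-control probes and among 18217 genes with a symbol. RNA came from bone marrow-derived macrophages (BMDMs) of 8-week C57BL/6 mice, grown for 7 days in M-CSF, the growth factor that drives marrow cells to macrophages. The cells were left untreated (Con), given LPS (5 ng/ml) with IFNγ (10 ng/ml) (M1), or given IL-4 (10 ng/ml) (M2), with the stimulants left on for 6 h. WT cells were compared with Keap1 CKO cells (KpCKO, Keap1 flox/flox::LysM-Cre), in which Cre from the lysozyme M locus deletes *Keap1* in myeloid cells and the transcription factor Nrf2 is left active. Whether the WT mice carried Cre is not given in the sources used here. There were 6 groups of 2 arrays from 2 independent cultures, each begun from a WT and a KpCKO mouse. Culture 1 came from male mice and culture 2 from female mice. The number of arrays limits the precision, and sex and culture cannot be told apart.

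A T cell that meets its antigen needs further signals from the presenting cell. CD80 and CD86 bind CD28 as the main costimulators, ICOSL and 4-1BBL (*Tnfsf9*) act through ICOS and 4-1BB, and CD40 receives the CD40 ligand of T cells and drives the presenting cell's own activation. PD-L1 (*Cd274*) and PD-L2 (*Pdcd1lg2*) bind PD-1 and restrain the T cell, and CD200 restrains myeloid cells through its receptor CD200R1. CD83 is a marker of mature presenting cells that stabilises MHC class II and CD86 at the surface.

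Levels are the log2 processed signal less the 75th percentile of the array, so 0 is a signal equal to that percentile and each unit is a doubling. A level of one gene is not set against a level of another, since probes differ in brightness. Differences are from limma with the culture, taken from the replicate number, as a block. A gene was called at an adjusted p (Benjamini-Hochberg over all genes tested) of at most 0.05. Stimulus and slide cannot be told apart, because the 4 arrays of a stimulus shared a slide, whereas WT and KpCKO arrays lay side by side on it. No member probe was saturated, and between 59.4% and 71.5% of probes were well above background on an array. *Keap1* was lower in KpCKO arrays by 1.46 (Con), 1.71 (M1) and 1.81 (M2) on the log2 scale, and *Nqo1*, a known Nrf2 target, was higher by 3.23, 3.50 and 3.52. The *Keap1* call in Con ended when any 1 array was left out (adjusted p from 0.166 to 0.225). The macrophage markers *Adgre1*, *Csf1r*, *Itgam*, *Mertk*, *Fcgr1* and *Lyz2* were well above background on all 12 arrays, while the T cell marker *Cd8a* and the B cell marker *Ms4a1* were not above background in WT cells. In bulk RNA, fewer cells with a transcript and less transcript per cell cannot be told apart.

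M1 stimulation raised all 9 molecules in both genotypes. In WT cells the 9 differences ran from 1.56 (*Cd80*) to 9.98 (*Cd40*) on the log2 scale, with a median of 4.47 against 0.13 over all genes, and 34.5% of all genes were called higher in this contrast. In KpCKO cells all 9 were also called higher, with a median of 4.19 against 0.03 over all genes and 24.8% of genes called higher and 25.4% lower. The smallest KpCKO rise, 0.77 for *Cd80*, was 0.61 after normexp correction and was then not called (adjusted p = 0.107). The median of all genes in WT moved from 0.13 to -0.08 under quantile normalization, a shift that is small beside any of these 9 differences.

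*Cd40* rose furthest. Its level was -2.25 and -1.50 on the WT Con arrays, 8.04 and 8.17 on the WT M1 arrays and 1.44 and 2.11 on the WT M2 arrays. The KpCKO arrays gave -3.09 and -1.97 in Con, 7.29 and 7.22 in M1 and 0.21 and 1.602 in M2. The 3 stimuli did not overlap in either genotype. The M1 difference was 9.98 ± 0.35 (SE) in WT, 1007-fold, with adjusted p = 4.5e-06, and ranked 18th of 22356 genes tested, and it was 9.78 ± 0.35 in KpCKO. *Cd40* was also raised by IL-4, by 3.64 in WT (adjusted p = 0.00166) and 3.43 in KpCKO (adjusted p = 0.00304).

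Of 10 adaptors, kinases and ligases that carry or limit the CD40 signal, 7 were called higher and 1 lower in WT M1 against Con. In KpCKO M1 9 were called higher and 1 lower. Over all genes, 34.5% were called higher and 28.7% lower in WT M1, and 24.8% and 25.4% in KpCKO M1. *Traf1*, an adaptor of TNF receptors, rose by 7.05 in WT, the ubiquitin-editing inhibitor *Tnfaip3* by 5.19 and the ubiquitin ligase *Birc3* by 3.43. *Map3k14*, the kinase of the noncanonical NF-κB branch, was the 1 that fell in WT, by 0.62, and is named after its value was seen. Its call ended in 3 of the 4 fits that left out 1 array (adjusted p up to 0.0905). With IL-4, 1 of the 10 was called, *Traf5*, which was higher by 2.04 in WT and 1.95 in KpCKO. Over all genes, 8.62% were called higher and 8.2% lower with IL-4 in WT, and 5.68% and 4.54% in KpCKO.

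**Figure D1:**
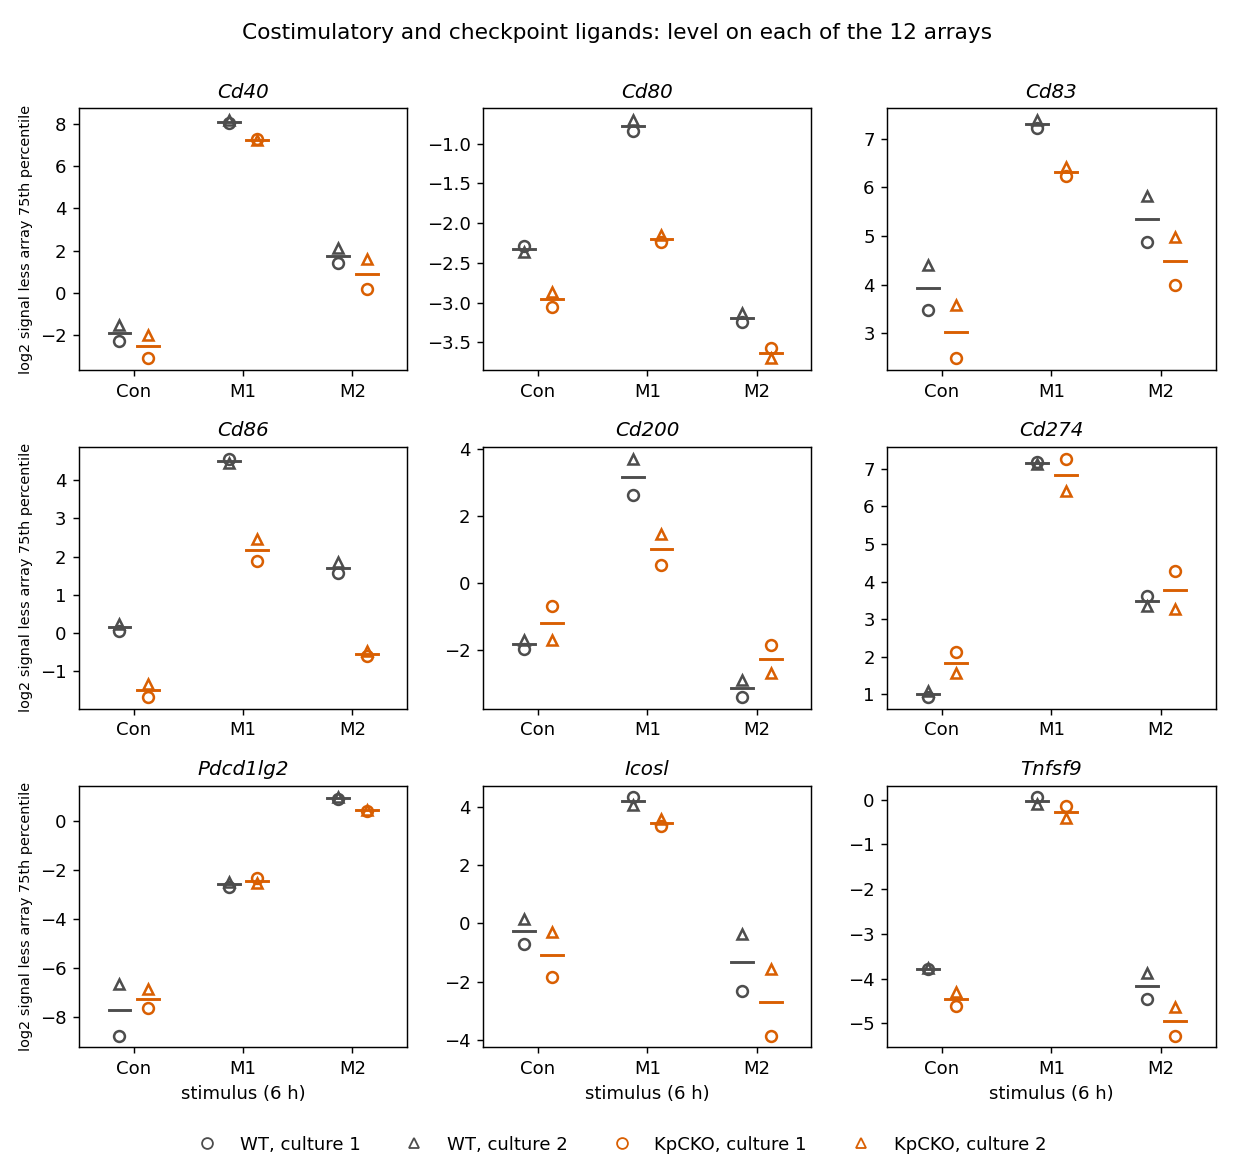
Level of each of the 9 molecules (log2 signal less the 75th percentile of the array, vertical axis, a scale of its own in each panel) in Con, M1 and M2 cells, with WT in grey, KpCKO in orange, culture 1 as circles, culture 2 as triangles and the mean of 2 arrays as a bar. All 9 are highest in M1 except *Pdcd1lg2*, which is highest in M2, and *Cd86* is lower in KpCKO than in WT at every stimulus.

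The CD28 ligands differed in how far they rose. *Cd86* stood at 0.044 and 0.25 on the WT Con arrays, 4.56 and 4.46 in WT M1 and 1.56 and 1.85 in WT M2. *Cd80* stood at -2.29 and -2.37 in WT Con, -0.84 and -0.70 in WT M1 and -3.25 and -3.13 in WT M2. *Cd86* was thus lowest without stimulus, and *Cd80* was lowest with IL-4. The WT M1 difference was 4.36 ± 0.16 for *Cd86* (20.6-fold, adjusted p = 4.83e-06) and 1.56 ± 0.11 for *Cd80* (2.94-fold, adjusted p = 4.14e-05). With IL-4, *Cd86* rose by 1.56 ± 0.16 (adjusted p = 0.00199) and *Cd80* fell by 0.86 ± 0.11 (adjusted p = 0.00483). After normexp background correction *Cd80* was lower by 0.19 only, with adjusted p = 0.569.

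*Icosl*, the ligand of ICOS, stood at -0.69 and 0.16 in WT Con, 4.33 and 4.07 in WT M1 and -2.32 and -0.35 in WT M2. The M1 arrays were far above the rest, and the Con and M2 arrays overlapped. It was higher in M1 by 4.47 ± 0.60 in WT and 4.54 ± 0.60 in KpCKO, and the M2 differences of -1.07 and -1.64 were not called (adjusted p = 0.27 and 0.139). A dimmer second *Icosl* probe was not well above background on any Con or M2 array. Against Con, its M1 signal was higher by at least 14.8-fold in WT and by at least 9.59-fold in KpCKO, where each bound sets the dim arrays at the lowest signal well above background.

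*Tnfsf9* stood at -3.79 and -3.76 in WT Con, 0.046 and -0.097 in WT M1 and -4.45 and -3.87 in WT M2. It rose in M1 by 3.75 ± 0.24 in WT and 4.19 ± 0.24 in KpCKO, and its M2 differences of -0.38 and -0.49 were not called. *Cd83* stood at 3.47 and 4.41 in WT Con, 7.21 and 7.38 in WT M1 and 4.88 and 5.82 in WT M2. In each stimulus the *Cd83* level was higher in culture 2 than in culture 1, in WT and in KpCKO. It rose by 3.36 ± 0.27 in WT M1 and by 3.29 ± 0.27 in KpCKO M1. In M2 it rose by 1.41 (adjusted p = 0.0155) in WT and 1.45 (adjusted p = 0.0219) in KpCKO, calls that ended without the culture block (adjusted p = 0.14 and 0.177) and when any 1 array of the pair of groups was left out (0.0653 to 0.108 in WT and 0.0711 to 0.127 in KpCKO).

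Of the molecules that restrain, *Cd200* stood at -1.99 and -1.70 in WT Con, 2.63 and 3.70 in WT M1 and -3.41 and -2.90 in WT M2. It rose in M1 by 5.01 ± 0.54 in WT, 32.2-fold, and by 2.20 ± 0.54 in KpCKO (adjusted p = 0.0128). The KpCKO call ended without the culture 2 array of KpCKO Con or of KpCKO M1 (adjusted p = 0.0882 and 0.0898). Its M2 differences of -1.31 in WT and -1.08 in KpCKO were not called. *Cd200r1*, which encodes its receptor, fell by 1.78 in WT M1 and rose by 0.82 in WT M2, and is named here after its values were seen. The M2 call ended in 3 of the 4 fits that left out 1 array (adjusted p up to 0.0776).

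The PD-1 ligands parted by stimulus. *Cd274* stood at 0.93 and 1.09 in WT Con, 7.17 and 7.14 in WT M1 and 3.63 and 3.34 in WT M2. *Pdcd1lg2* stood at -8.74 and -6.65 in WT Con, -2.70 and -2.49 in WT M1 and 0.89 and 0.94 in WT M2. The 3 stimuli did not overlap for either gene, and the order of M1 and M2 was opposite. *Pdcd1lg2* was well above background on 1 of the 2 Con arrays in each genotype, so its rise from Con rests on a dim baseline.

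*Cd274* rose by 6.14 ± 0.29 in WT M1 (70.7-fold, adjusted p = 9.12e-06) and by 2.47 ± 0.29 in WT M2 (5.55-fold, adjusted p = 0.00322). *Pdcd1lg2* rose by 5.10 ± 0.52 in WT M1 and by 8.61 ± 0.52 in WT M2 (adjusted p = 0.000422), ranking 3rd of 22366 genes in M2. In KpCKO M2 it rose by 7.65 ± 0.52 (adjusted p = 0.00102) and again ranked 3rd. The size of each *Pdcd1lg2* rise depends on how the dim Con signals are treated. After normexp correction it was 2.02 in WT M1, 2.18 in KpCKO M1, 5.14 in WT M2 and 4.64 in KpCKO M2, against 5.10, 4.80, 8.61 and 7.65, with each still called.

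*Pdcd1lg2* and *Cd274* lie near each other on chromosome 19. Their promoter windows, 250 bases before to 50 after the RefSeq start on GRCm38.p6, are shown because the pair differed in stimulus. Capitals mark matches, on either strand, to GAS (TTCNNNGAA), STAT6 (TTC and GAA with 4 bases between), kB (GGG and CC with 5 bases between) or ARE (TGACNNNGC or TGAGNNNGC) letters.
Pdcd1lg2, chr19:29410669-29410968, plus strand: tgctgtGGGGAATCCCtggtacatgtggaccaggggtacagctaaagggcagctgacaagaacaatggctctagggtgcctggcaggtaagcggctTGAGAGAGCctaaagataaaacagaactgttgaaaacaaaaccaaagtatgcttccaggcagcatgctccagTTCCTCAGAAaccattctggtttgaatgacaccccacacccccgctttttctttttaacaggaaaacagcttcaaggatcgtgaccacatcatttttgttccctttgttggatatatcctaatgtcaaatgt
Cd274, chr19:29367188-29367487, plus strand: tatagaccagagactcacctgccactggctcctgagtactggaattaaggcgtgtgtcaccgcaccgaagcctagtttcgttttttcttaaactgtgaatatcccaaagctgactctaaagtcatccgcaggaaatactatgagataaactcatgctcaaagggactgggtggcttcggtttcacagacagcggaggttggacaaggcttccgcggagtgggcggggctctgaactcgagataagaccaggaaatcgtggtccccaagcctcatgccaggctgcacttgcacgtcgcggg
The *Pdcd1lg2* window holds 1 STAT6 match, TTCCTCAGAA, from -82 to -73 of the start, 1 kB match and 1 ARE match, and the *Cd274* window holds no match to these letters. Of 32851 windows of this length, 6.95% hold the STAT6 letters, 8.30% GAS, 50.8% kB and 27.8% ARE. Windows were found for 5 of the 9 members. *Cd80* and *Icosl* hold 2 kB matches each and *Cd200* holds none. A match is a description of the letters and not a site.

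**Figure D2:**
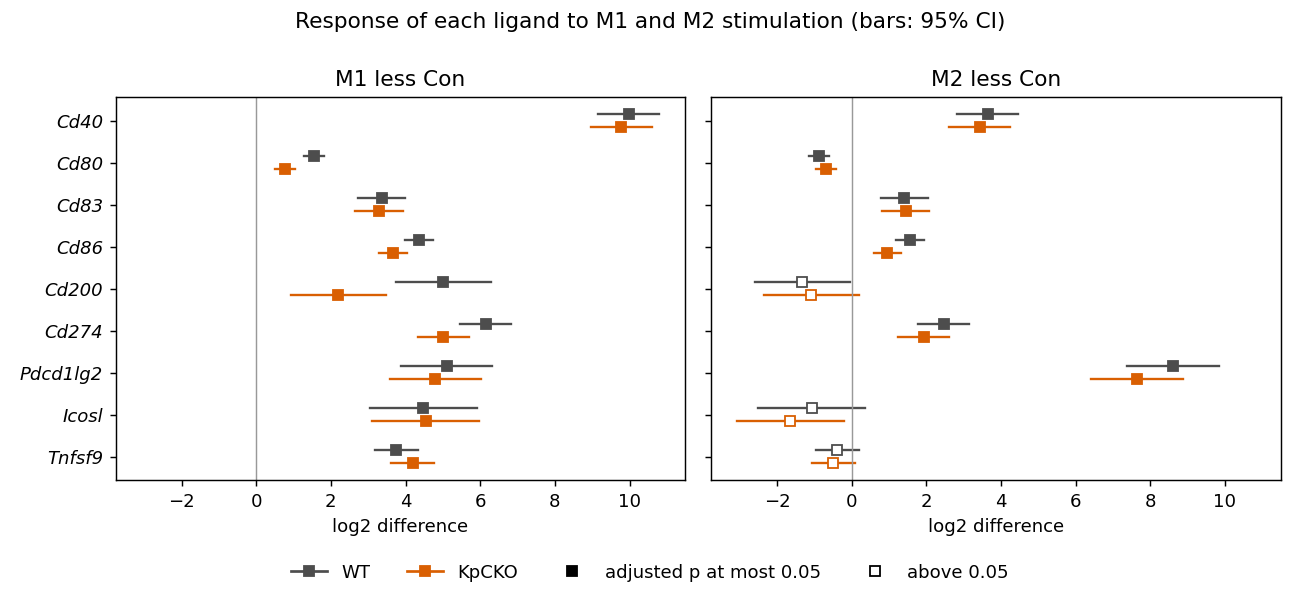
Fitted log2 difference of M1 from Con (left) and of M2 from Con (right) for the 9 molecules, in WT (grey) and KpCKO (orange), with 95% confidence intervals as bars. Filled squares passed an adjusted p of 0.05: all 9 in M1 and 6 in M2 in each genotype, with *Cd80* the 1 that fell in M2.

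IL-4 thus moved 6 of the 9 in WT: *Cd40*, *Cd83*, *Cd86*, *Cd274* and *Pdcd1lg2* were higher and *Cd80* lower. Over all genes, 8.62% were called higher and 8.2% lower, a split of 1929 higher of 3764 called that became 1028 of 1674 after normexp correction. The same 6 moved in the same directions in KpCKO, where 5.68% of genes were called higher and 4.54% lower (1270 higher of 2286 called, and 457 of 690 after normexp). The KpCKO count was 2 or 3 when 1 array was left out. *Cd40* and *Pdcd1lg2* had the lowest adjusted p values of the 6, and *Cd80*, *Cd83*, *Cd86* and *Cd274* each lost the call when at least 3 of the 4 arrays were left out in turn, at adjusted p values up to 0.127.

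A direct contrast of M2 with M1 in WT was added after the values were seen. *Pdcd1lg2* was higher in M2 by 3.51 ± 0.52 (adjusted p = 0.000946). The other 8 were lower in M2, by 1.94 (*Cd83*) to 6.33 (*Cd40*) on the log2 scale, and *Cd200* was lower by 6.32. Of all genes, 29.3% were called higher and 33.7% lower in this contrast.

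The genotype comparison asks whether loss of *Keap1* changes these molecules. *Cd86* was lower in KpCKO in all 3 stimuli, *Cd80* was lower in Con and M1, and *Cd200* was lower in M1. No member was called higher. In Con 2 of the 9 were called lower, against 0.827% of all genes lower and 1.39% higher. In M1 3 were called lower, against 8.58% lower and 7.43% higher (1660 higher of 3579 called, and 2030 of 3382 after quantile normalization). In M2 1 was called lower, against 0.644% lower and 1.28% higher (287 higher of 431 called, and 124 of 225 after normexp). The median of the 9 was -0.66 in Con, -0.85 in M1 and -0.79 in M2, beside 0.0016, -0.087 and 0.019 over all genes. In the same order, 6, 7 and 7 of the 9 were lower in both cultures. The share of all genes lower in both cultures is not given here, so these counts have no background beside them. The genes called over the whole table numbered 497 in Con and 431 in M2, and when 1 array was left out they numbered 96 to 170 and 67 to 140, and 837 to 3626 in M1 (837 without culture 1 of KpCKO M1 and 1084 without culture 2 of WT M1).

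For *Cd86*, the KpCKO arrays stood at -1.68 and -1.33 in Con, 1.89 and 2.45 in M1 and -0.61 and -0.47 in M2. Each pair lay below the WT pair of its stimulus, and the KpCKO M2 arrays lay below the untreated WT arrays. The difference was -1.65 ± 0.16 in Con (3.13-fold, 95% CI -2.02 to -1.28, adjusted p = 0.00471), -2.34 ± 0.16 in M1 (5.05-fold, 95% CI -2.71 to -1.97, adjusted p = 0.000706) and -2.25 ± 0.16 in M2 (4.74-fold, 95% CI -2.62 to -1.87, adjusted p = 0.00157). Counted from the most lowered gene, *Cd86* ranked 135th in Con, 66th in M1 and 44th in M2. A second *Cd86* probe, which the fit did not use, gave -1.63, -2.45 and -2.05. The calls in M1 and M2 held when any 1 array was left out, and the call in Con ended without the culture 1 array of either genotype, at an adjusted p of up to 0.0577.

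*Cd80* stood at -3.06 and -2.86 in KpCKO Con, -2.24 and -2.15 in KpCKO M1 and -3.57 and -3.70 in KpCKO M2. These arrays too lay below their WT pairs. The KpCKO M1 arrays stood just above the WT Con arrays, -2.24 and -2.15 against -2.29 and -2.37. The difference was -1.42 ± 0.11 in M1 (2.68-fold, adjusted p = 0.00113), -0.63 ± 0.11 in Con (adjusted p = 0.0427) and -0.45 ± 0.11 in M2 (adjusted p = 0.13). The Con call ended when any 1 array was left out (difference from -0.71 to -0.55). It also ended without the culture block (adjusted p = 0.0955) and without the filter on dim probes (0.103). After normexp correction the Con difference was -0.43 (adjusted p = 0.989). The adjusted p was 0.243 when only the groups compared were fitted and 0.621 with the methods' t-test.

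*Cd200* stood at 0.54 and 1.47 in KpCKO M1, below both WT M1 arrays. In Con it stood at -0.69 and -1.71 and in M2 at -1.87 and -2.69 in KpCKO, where the means lay above WT. The M1 difference was -2.16 ± 0.54 (4.48-fold, 95% CI -3.44 to -0.89, adjusted p = 0.0401). It was called in 1 of the 4 fits that left out 1 array (adjusted p from 0.0407 to 0.199), and it was not called without the culture block (0.0516), after quantile normalization (0.0523) or after normexp correction (0.0713). In Con and M2 the differences were 0.64 (95% CI -0.63 to 1.92) and 0.88 (95% CI -0.40 to 2.15), with neither called.

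**Figure D3:**
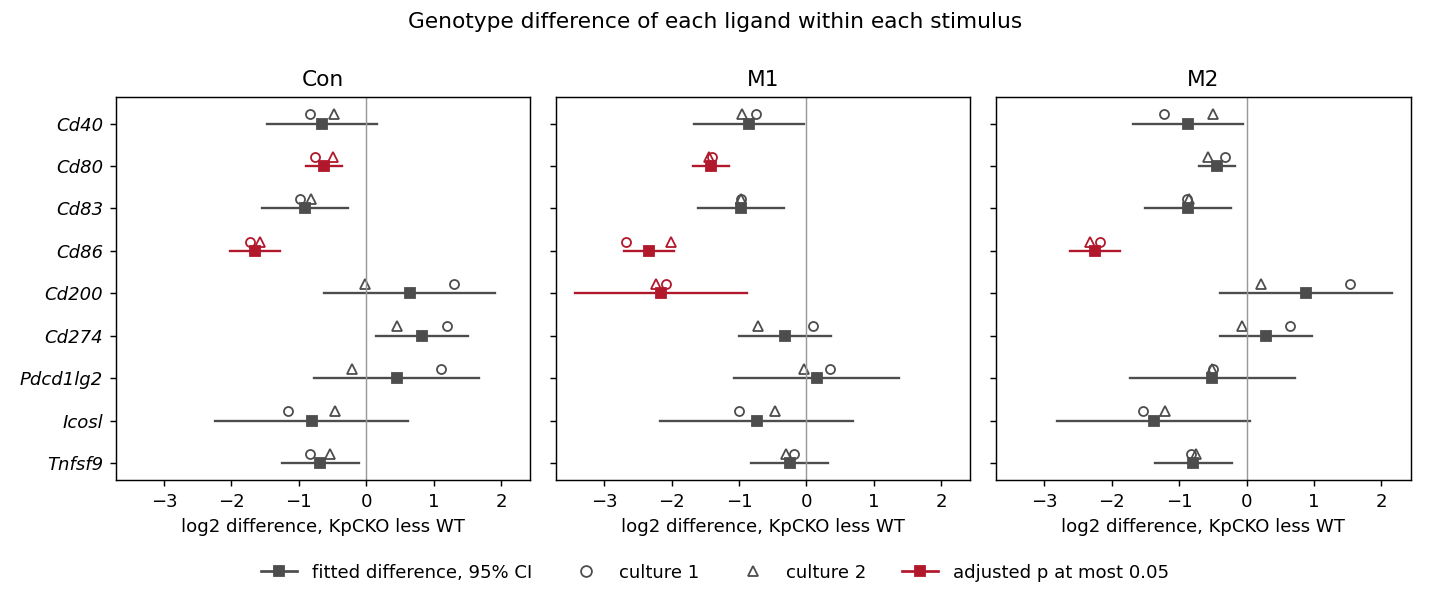
Log2 difference of KpCKO from WT for the 9 molecules in Con, M1 and M2, as the fitted value with its 95% confidence interval (squares and bars) and as the difference within culture 1 (circles) and culture 2 (triangles). Red marks an adjusted p of at most 0.05: *Cd80* and *Cd86* in Con, *Cd80*, *Cd86* and *Cd200* in M1 and *Cd86* in M2, each below 0 in both cultures.

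*Cd83* and *Cd40* leaned lower in KpCKO at each stimulus without a call. For *Cd83* the KpCKO arrays stood at 2.49 and 3.58 in Con, 6.24 and 6.41 in M1 and 4.002 and 4.97 in M2. Within each culture the KpCKO array was below the WT array, and the groups overlapped in Con and M2 since the cultures differed. The *Cd83* differences were -0.90 (adjusted p = 0.18), -0.97 (0.0519) and -0.87 (0.208) in Con, M1 and M2. With all arrays kept, the M1 value passed under 4 of 12 alternatives (adjusted p from 0.0286 to 0.0478). These 4 changed the filter, the floor, the variance model or the block, and under the rest the adjusted p was up to 0.335. When 1 array was left out, the M1 difference ran from -1.30 to -0.64. The *Cd40* differences were -0.66 (0.48), -0.85 (0.135) and -0.87 (0.321), with 95% intervals that reached -1.48, -1.67 and -1.69.

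*Icosl* stood at -1.85 and -0.30 in KpCKO Con, 3.34 and 3.60 in M1 and -3.85 and -1.57 in M2. *Tnfsf9* stood at -4.62 and -4.30, -0.14 and -0.40, and -5.27 and -4.63 in the same order. Both were below WT within each culture at each stimulus. None of these differences was called, and the 95% interval of the M2 difference was -2.81 to 0.057 for *Icosl* and -1.36 to -0.22 for *Tnfsf9* (adjusted p = 0.369 and 0.202).

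The PD-1 ligands showed no called genotype difference. *Cd274* stood at 2.12 and 1.55 in KpCKO Con, above both WT arrays, at 7.27 and 6.42 in M1 and at 4.28 and 3.27 in M2. Its differences were 0.83 (95% CI 0.14 to 1.51, adjusted p = 0.254) in Con, -0.31 (95% CI -0.99 to 0.37) in M1 and 0.29 (95% CI -0.39 to 0.97) in M2. *Pdcd1lg2* stood at -7.63 and -6.85 in KpCKO Con, -2.35 and -2.53 in M1 and 0.39 and 0.43 in M2. Its difference was 0.15 (95% CI -1.07 to 1.38) in M1 and -0.51 (95% CI -1.73 to 0.72) in M2, intervals that leave room for changes beyond a doubling.

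Whether the genotypes responded differently to the stimuli was tested by the interaction. None of the 9 was called for M1, where 0.0716% of all genes were, and none for M2, where 0.00894% were. The 16 genes behind the M1 share were 0 to 537 when 1 array was left out (537 without culture 1 of WT M1, and 0 without culture 2 of WT Con or either KpCKO Con array), 119 with trended and robust variances and 0 after normexp correction. At an unadjusted p under 0.05 there were 4 members for M1 and 1 for M2. The share of all genes under this threshold is not given here. By rank, the weakest of the 4 for M1 stood behind many more genes than the 1 for M2. Ranked by p for M1, *Cd80* stood at 281, *Cd200* at 979, *Cd86* at 1692 and *Cd274* at 2381 of 22354 genes. For M2 *Cd86* stood at 281 of 22365. The M1 rise was smaller in KpCKO by 0.79 for *Cd80* (95% CI -1.17 to -0.42, adjusted p = 0.127), by 0.69 for *Cd86* (-1.22 to -0.16, 0.228), by 2.80 for *Cd200* (-4.61 to -1.002, 0.181) and by 1.14 for *Cd274* (-2.10 to -0.17, 0.253). The M2 rise of *Cd86* was smaller by 0.60 (-1.12 to -0.073), with an adjusted p near 1. The genotype and response contrasts share arrays, so these values are not further evidence beside the differences above.

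Markers of other cell types were read beside the genotype differences. The summed level of 6 macrophage markers, in units of the 75th percentile, was 507 to 550 in WT Con and 375 to 425 in KpCKO Con. It was 665 to 804 and 496 to 563 in M1, and 473 to 524 and 406 to 441 in M2. The sum was lower in KpCKO at each stimulus without overlap, but such a sum is set mostly by the brightest probes. Gene by gene, none of the 6 was called between genotypes in Con or M2, where their medians were -0.21 and -0.15. In M1 3 of the 6 were called lower in KpCKO, beside 8.58% of all genes: *Fcgr1* by 1.20, *Itgam* by 0.65 and *Adgre1* by 0.39. Each of these 3 calls ended without culture 2 of WT M1 (adjusted p = 0.149, 0.063 and 0.173) or culture 1 of KpCKO M1 (0.15, 0.0808 and 0.144), and that of *Adgre1* also without culture 2 of KpCKO M1 (0.113). The sum of 7 dendritic cell markers was 0.36 to 0.53 in Con, 1.44 to 2.38 in WT M1, 1.09 to 1.37 in KpCKO M1 and 0.46 to 0.76 in M2. The sum of 8 neutrophil markers was 5.55 to 18.2 over all groups, with *Elane* not above background in any group and *Mmp8* higher in KpCKO by 2.09 in M1 and 2.504 in M2 (the M2 call ended when any 1 array was left out, at adjusted p values up to 0.178, and the M1 call without culture 2 of WT M1, 0.0924). In each group 6 or 7 of the 8 neutrophil markers were well above background on both arrays. The median genotype difference of the 7 neutrophil markers tested was -0.29 in Con, 0.27 in M1 and -0.61 in M2. Among these 7, only *Mmp8* was called between genotypes. Against Con, *Camp* was called higher and *Ltf* and *Mmp8* lower in M1 in both genotypes. The sum of 7 T and B cell markers was at most 0.65, with 2 to 5 of them well above background on both arrays of a group. The part of these markers in the results was not tested.

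The other ligands by which presenting cells meet lymphocytes were read beside the 9. Of 26 listed, 22 were tested, and *Vtcn1*, *Tnfsf18*, *Btn2a2* and *Btn1a1* were not well above background on both arrays of any group. In WT M1 12 rose and 6 fell, with a median of 1.57 against 0.13 over all genes, where 34.5% of genes were higher and 28.7% lower. *Slamf1*, a receptor that binds itself on the partner cell, was at least 96.6-fold higher, the integrin ligand *Icam1* rose by 5.79, and the OX40 ligand *Tnfsf4* was at least 10.4-fold higher. In WT M2 3 rose and 2 fell, shares near the 8.62% higher and 8.2% lower of all genes, among them *Slamf1* (at least 1.54-fold, well above background on 1 of the 2 M2 arrays), *Nectin3* (-0.83) and *Vsir* (-0.73). These 3 calls ended in at least 3 of the 4 fits that left out 1 array.

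*Tnfsf4* was higher in KpCKO at each stimulus. It stood at -8.66 and -7.73 in WT Con and -3.05 and -2.45 in KpCKO Con, at -3.63 and -3.48 in WT M1 and 0.58 and 1.74 in KpCKO M1, and at -8.81 and -7.89 in WT M2 and -4.69 and -3.50 in KpCKO M2. The KpCKO arrays lay above WT without overlap, and the WT Con and M2 arrays were not well above background. The gene was at least 18.2-fold higher in KpCKO Con (adjusted p = 0.000312), 26.3-fold higher in KpCKO M1 (4.71 ± 0.25, adjusted p = 0.000448) and at least 6.08-fold higher in KpCKO M2 (adjusted p = 0.00083). All 3 calls held when any 1 array was left out. After normexp correction the M1 difference was 3.82, while those in Con and M2, where WT is dim, were 2.08 (adjusted p = 0.0949) and 0.28 (0.672).

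In Con 4 of the 22 were called higher in KpCKO and none lower, beside 1.39% and 0.827% of all genes. In M2 the counts were again 4 and none, beside 1.28% and 0.644%. Apart from *Tnfsf4*, the called ligands included *Cd276*, the B7-H3 coinhibitor, by 1.38 in Con and 1.27 in M2. They also included the adhesion molecule *Nectin3*, by 1.22 and 1.26. The *Cd276* and *Nectin3* calls each ended in at least 3 of the 4 fits that left out 1 array, at adjusted p values up to 0.222, and that of *Cd276* ended after normexp correction (0.85 in Con and 0.31 in M2). In M1 5 were called higher and 7 lower, beside 7.43% and 8.58% of all genes. The largest were *Tnfsf4*, *Ly9*, a receptor of the SLAM family, which was higher by 1.81, and the TNF ligand *Tnfsf15*, which was lower by 1.71. In the M1 interaction *Vsir*, the coinhibitor VISTA, was the 1 of the 22 called: it fell by 1.82 in KpCKO, the WT difference of -0.23 was not called, and the responses differed by -1.59 (adjusted p = 0.0486). That call held in 1 of the 8 fits that left out 1 array (without culture 1 of WT M1, adjusted p = 0.0225, and up to 0.2 in the others). With all arrays kept it ended in 7 of 11 alternatives, among them quantile normalization, normexp correction and no culture block, at adjusted p values up to 0.299.

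**Figure D4:**
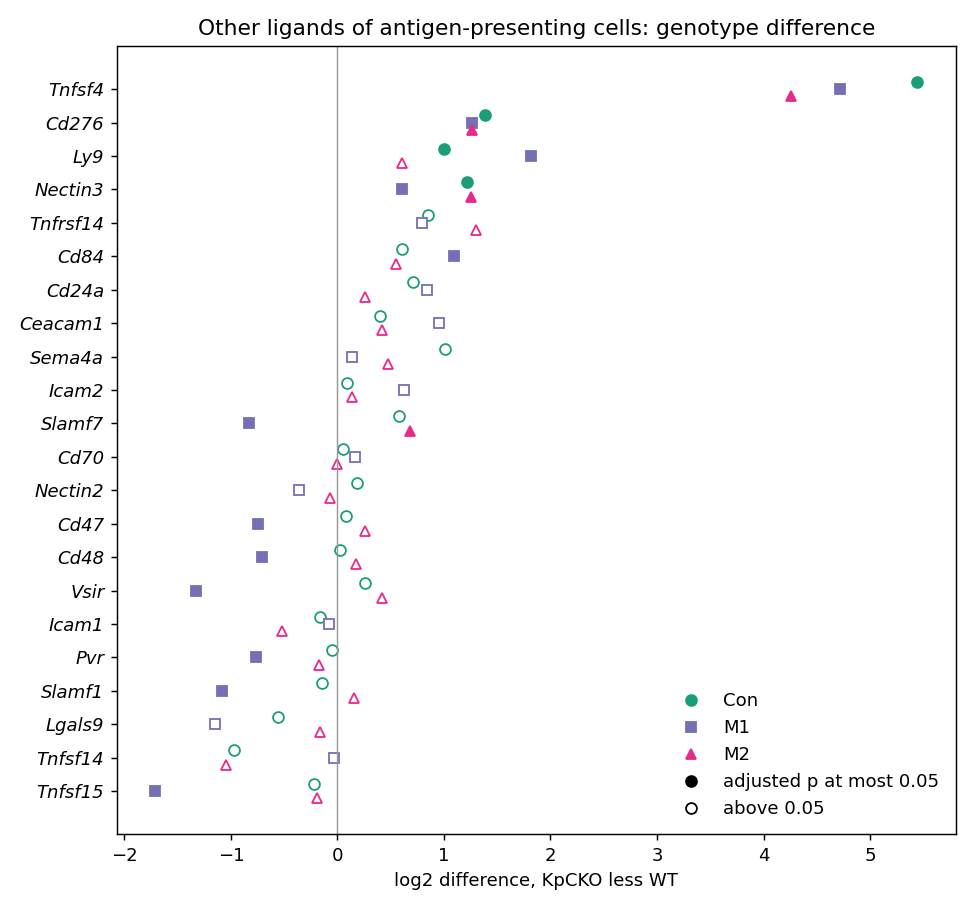
Log2 difference of KpCKO from WT for the 22 other ligands tested, in Con (circles), M1 (squares) and M2 (triangles), filled where the adjusted p was at most 0.05. *Tnfsf4* lies at 4.25 to 5.44 at all 3 stimuli, while *Tnfsf15* lies at -1.71 in M1. For *Tnfsf4* in Con and M2, and for *Cd276* in M1, the WT arrays were not above background, so the plotted difference is not a measured fold.

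Of 8 receptors of the members, 5 were tested, and *Ctla4*, *Pdcd1* and *Cd40lg* were not well above background on both arrays of any group. *Cd200r1* was higher in KpCKO M1 by 1.13 (adjusted p = 0.00486), where *Cd200* itself was lower. In WT M1 all 5 were called, 2 higher and 3 lower, where 63.2% of all genes were called in either direction. *Cd28* fell by 6.61 and was well above background on 1 of the 2 WT M1 arrays, *Tnfrsf9*, the receptor of *Tnfsf9*, rose by 2.11, and *Icos* was at least 2.16-fold lower. After normexp correction the *Icos* difference was -0.027 and not called, and that of *Tnfrsf9* was 1.07 (adjusted p = 0.064).

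Genes of cytokine receptor signalling were counted in the same way. Of 11 genes of IFNγ and IL-4 receptor signalling, 8 rose and 2 fell in WT M1, with *Jak2* up by 4.79 and *Irf1* by 4.58. In KpCKO M1 8 rose and 2 fell. Of all genes, 34.5% were called higher and 28.7% lower in WT M1, and 24.8% and 25.4% in KpCKO M1. Between genotypes in M1, *Jak2* was lower by 1.21 (adjusted p = 0.0118) and *Il2rg*, the shared receptor chain, by 0.70 (adjusted p = 0.0254), which is 2 of 11 beside 16.0% of all genes called in either direction. Both calls ended without culture 2 of WT M1 or culture 1 of KpCKO M1, at adjusted p values up to 0.134. None of the 11 was called between genotypes in Con or M2. Of the 10 CD40 signalling genes, 3 were called lower in KpCKO M1, among them *Traf1* by 1.01 and *Tank* by 0.78. In the same contrast 1 was higher, *Traf5* by 1.62, and of all genes 8.58% were called lower and 7.43% higher. The *Traf1* call ended when any 1 array was left out (adjusted p up to 0.141), and that of *Tank* without culture 1 of KpCKO M1 (0.0623). Of the ubiquitin ligases and partners that set surface CD86 and PD-L1, 3 of 4 were tested (*Cmtm6* was not analysed here), and *Marchf1*, a ligase that removes CD86 and MHC class II, was higher by 1.03 in WT M1 and 1.43 in KpCKO M1, with no genotype difference called.

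The genes most like each member over the 12 arrays were sought among 14456 genes with a symbol, by Pearson's r and as a description only, since the arrays share stimuli. *Cd40* was most like *Slc2a6*, *Cdkn1a* and *Cst7* (r = 0.995, 0.993 and 0.991). *Cd86* was most like the glycolytic enzyme *Pfkl*, *Tha1* and *Ap4s1* (0.979, 0.977 and 0.974), and *Cd80* most like *Marcks*, *Cebpd* and *Tut7* (0.986, 0.984 and 0.983). *Pdcd1lg2* was most like *Fchsd2*, the transcription factor *Batf3* and *Pcid2* (0.978, 0.978 and 0.972). *Cd274* was most like *Maff*, *Zyx* and *Entr1*, *Cd83* most like *St3gal1*, *Ppie* and *Gvin1*, and *Cd200* most like *Tpbg*, *Dnajb6* and *Pabpc1*. *Icosl* was most like *Btg1*, *Arl5c* and the chemokine *Cxcl10* (0.995, 0.990 and 0.987), and *Tnfsf9* most like the interferon-induced GTPases *Gbp3* and *Irgm2*, with *Ppp2r5b* (0.997, 0.995 and 0.995). No 2 members shared a gene among these 3.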

How the data were processed

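RNA was labelled with Cy3 and hybridised to 1-colour Agilent arrays whose design names mm9. The deposited scanner files hold spot intensity from Agilent Feature Extraction 10.7.3.1, and the deposited matrix holds log2 values that the authors normalized in GeneSpring, which matched the processed signal with slopes of 0.99971 to 1.0002 on centred values and kept column medians of -0.07 to 0.31. The deposited flags other than intensity were used to mark background, saturation and outlier spots. Processed signals were divided by the array's 75th percentile (548 to 1166) and put on a log2 scale, spots of a probe averaged, and the brightest probe taken per gene (26690 of 41174 probes matched a RefSeq symbol of GRCm38.p6, used for names and promoters only). The 22367 genes kept had, in some group, both arrays well above background. limma 3.58.1 in R 4.3.3 fitted 6 groups with the culture as a block, leaving 5 residual degrees of freedom, with Benjamini-Hochberg adjustment over all genes. The labels give replicate numbers and do not name a culture. The series text says that each culture held both genotypes, so the replicate number was taken to mark the culture. Arrays of a culture deviated together in all 15 pairs of groups (r from 0.162 to 0.597). The arrays of 1 mouse were not a further block (residual correlation -0.0505). The fit was run on simulated data for KpCKO against WT in M1 only. Those data were drawn from the fitted model, so the run checked the code and not whether the model suits these arrays.

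The members and gene lists were chosen with earlier results of these data known. All 9 members are named. Of each list, at most the 3 genes with the largest called difference in the same direction in both cultures are named for a comparison, plus genes not above background and the checks. Where neither array of a group rose above background, the fold is a bound set at each array's lowest signal well above background. Alternatives were quantile normalization, normexp correction (offset 50), the authors' matrix, no filter, other probe summaries, a floor, no block, only the groups compared, the methods' t-test and leaving out each array.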

Additional observations from a re-analysis of the deposited data

Results flagged for a closer look

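The genotype difference of *Cd200* pointed opposite ways after the 2 stimuli. It was -2.16 in M1, lower in KpCKO in both cultures, and 0.88 in M2, higher in KpCKO in both cultures. The difference between these effects was not tested. Only the M1 value was called, and that call was lost in 3 of the 4 fits that left out an M1 array.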

How the results depend on the processing

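With 2 arrays a group, the calls rest on the spread shared over all 6 groups. When only the groups compared were fitted, 0 members were called between genotypes in Con, M1 or M2 and 0 for M2 against Con in KpCKO, and no gene of the table was called between genotypes. After adjustment, the methods' t-test called 5 members for M1 in WT, beside 2934 of 22227 genes. It called 0 members for M1 in KpCKO, for M2 in either genotype and for each genotype comparison. Unadjusted it called 3 for M2 in KpCKO, beside 2554 of 22195 genes, and 3 between genotypes in M2, beside 1740 of 22201. Without the culture block, 1 member was called between genotypes in Con, and the whole-table counts fell from 497 to 191 in Con, from 3579 to 1191 in M1 and from 431 to 193 in M2, with M2 against Con going from 3764 to 1714 in WT and from 2286 to 895 in KpCKO. In Con 1 was called also with normexp correction or no filter on dim probes. Leaving out 1 array gave 0 to 1 in Con and 2 to 3 for M2 in KpCKO. The cause was not tested. Without the filter the whole table held 259 genotype calls in Con and 238 in M2. Normexp shrank the whole-table genotype counts to 170 (Con), 915 (M1) and 225 (M2), and it moved the median of all genes to -0.22 in M1 and M2.

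Differences that changed sign were all uncalled. With normexp correction they were *Tnfsf9* in WT M2 (0.34), and in the response differences *Pdcd1lg2* (0.15) and *Icosl* (-0.075) for M1 and *Cd80* (-0.20) and *Cd200* (-0.23) for M2. With quantile normalization the M1 response differences were 0.087 for *Cd40*, 0.22 for *Cd83* and 0.013 for *Pdcd1lg2*, and the M2 one was -0.028 for *Cd83*. With a floor *Pdcd1lg2* gave -0.17 between genotypes in Con and 0.33 for the M1 response, and with the mean of probes *Icosl* gave -0.10 for the M1 response.

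Leaving out 1 array in turn, the genotype difference ran from -0.066 to 1.35 for *Cd200* and from -0.50 to 1.41 for *Pdcd1lg2* in Con, from -0.25 to 0.56 for *Pdcd1lg2*, -1.56 to 0.087 for *Icosl* and -0.52 to 0.024 for *Tnfsf9* in M1, and from -0.054 to 0.64 for *Cd274* in M2. The M1 response difference ran from -0.64 to 0.25 for *Cd40*, -0.40 to 0.26 for *Cd83*, -1.26 to 0.66 for *Pdcd1lg2* and -0.75 to 0.89 for *Icosl*. The M2 response difference ran from -0.65 to 0.23 for *Cd40*, -0.19 to 0.27 for *Cd83*, -0.47 to 0.94 for *Cd200*, -1.27 to 0.14 for *Icosl* and -0.38 to 0.16 for *Tnfsf9*. A lone array left in a group was assumed to vary like the other groups.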
